A study of Mus musculus with 4 samples.

Results

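The thymocyte contact map of the epidermal locus was taken as the set of fragment pairs, or contacts, listed in both thymocyte 5C tables. There were 31105 such contacts, of 68176 listed in either thymocyte table and 111588 listed in any of the 4 tables of the series. The locus spans 5.3 Mb of mouse chromosome 3 (89.9 to 95.2 Mb, mm9) and holds the Epidermal Differentiation Complex (EDC), whose genes build the outer barrier of the skin. The study compared its folding in primary epidermal keratinocytes, which use these genes, with that in primary thymocytes, using 2 5C libraries of each cell type. Both cell types came from C57BL/6 mice and are labelled as newborn, and the labels name no treatment or engineered allele. Thymocytes were the total T cell population crushed out of the thymus, filtered and freed of red cells, with no sorting of stages. Keratinocytes were seeded for 15 hours at 32 °C. All cells were fixed in 1% formaldehyde for 10 minutes and their DNA was cut with HindIII. The labels do not say whether libraries of a cell type came from separate mice, so p-values describe the spread between these libraries, which may be technical. 5C measures no RNA, so the identity of the thymocytes could not be checked against marker genes.

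In 5C, chromatin ends that lay close together are ligated, and a forward probe on one fragment is joined to a reverse probe on another when their ends were ligated. Chromosomes fold into topologically associating domains (TADs), stretches whose parts meet each other more often than they meet the neighbouring stretch. The cornified envelope genes of the EDC are expressed in differentiating epidermis and are not genes of the T cell programme. The flanks hold genes used by most cell types. Contact strength is given here as the observed over the expected corrected frequency (O/E), where the expected value is that at the same genomic distance in the same library, and as the Z score, the difference of these frequencies in standard deviations. A contact was called where its deposited q-value was under 0.05 in both thymocyte libraries.

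The contacts with the highest Z scores in both libraries are shown first. The rule took the called contacts with the highest smaller Z score of the 2 libraries, at 50 kb or more and, separately, between TADs at 1 Mb or more, which gave 7 contacts of 13 fragments. The probe ends that anneal to these fragments are printed 5′ to 3′ as the study designed them, with the 3 bases of the HindIII half-site at the ligated end in capitals.
forward 1013: gtctctaagagaggatggtcatgaaagAAG
reverse 1613: CTTactgatacaagacagcaggaaacgagg
forward 1545: gtcttgagaccttaagaattatgagtaAAG
reverse 41: CTTttagtgtctccaggatgcacagtctat
forward 1435: ggtgttaaactcatgcttttcttggaaAAG
reverse 1024: CTTgacatgtgtagcttgtcccaactcaga
reverse 1161: CTTcctatgcaactcagtgttgacagtgcc
forward 1624: actgaatgagatgtatagtgcgcacctAAG
reverse 1654: CTTaaggcagttaccatcccaaaggtaaag
forward 176: ggcattatgttcccacagtagcctgttAAG
reverse 856: CTTgaatacatgtcagagcactggaaagga
forward 1136: tctttttcacatatttctgtcaaggggAAG
reverse 1490: CTTgggaagcaactgcctttggtgccacta
All 13 lie at the right end of their fragment in mm9, the forward probes on the plus strand and the reverse probes on the minus strand. Of the 13 fragments, 5 overlapped a protein-coding gene, 2 held a transcription start and 0 held one of the study's keratinocyte enhancers.

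The first of the 7 contacts joined forward 1013 (probe at chr3:92920303-92920332, intergenic, 28.4 kb from Crnn) to reverse 1613 (chr3:94831819-94831848, intergenic, 4.77 kb from Psmd4), 1911 kb apart. Its corrected frequency was 303 in thymocyte library 1 and 78.5 in library 2, against expected values of 24.7 and 9.14, which gave Z scores of 23.4 and 20.2. In the keratinocyte libraries the same contact had Z scores of 0.0086 and 5.23. Forward 1013 took part in a second contact of the 7, with reverse 1161 (chr3:93391233-93391262, intergenic, 20.2 kb from S100a10) at 468 kb, where frequencies of 649 and 710 stood against expected values of 91.5 and 93.6.

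The longest contact joined forward 1545 (chr3:94643255-94643284), which holds the transcription start of Pogz, a zinc finger gene, to reverse 41 (chr3:90070250-90070279), over 4571 kb. The latter is a fragment of 17200 bp with coding exons of Slc39a1 (a zinc transporter), Crtc2 (a coactivator of CREB) and Gm10973, and with the transcription start of Dennd4b. Its frequency was 1078 and 763 against 110 and 77.3 expected, and neither keratinocyte library listed it. The contact of forward 176 (chr3:90477822-90477851, 1.41 kb from S100a8) with reverse 856 (chr3:92379165-92379194, 0.390 kb from Ivl) over 1900 kb had frequencies of 332 and 103 against 29.8 and 12.9. Its Z scores were 24.2 and 16.7 in thymocytes and −1.32 and −1.42 in keratinocytes. Within TAD7, forward 1624 (chr3:94871794-94871823, in Pip5k1a, with a coding exon) and reverse 1654 (chr3:94978462-94978491, in Sema6c, with a coding exon) met over 104 kb at frequencies of 3004 and 2507 against 339 and 333. This was the one contact of the 7 with a deposited q-value under 0.05 in both keratinocyte libraries as well (Z scores 3.64 and 8.50).

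The remaining contacts joined forward 1435 (chr3:94265892-94265921, 2.53 kb from Mrpl9) to reverse 1024 (chr3:92947335-92947364, 1.34 kb from Crnn), 9.07-fold and 9.29-fold over expected, and forward 1136 (chr3:93325709-93325738, in an intron of S100a11) to reverse 1490 (chr3:94463384-94463413, 0.302 kb from Tuft1), 8.76-fold and 6.72-fold. These contacts were chosen for their Z scores, so their size is a description.

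Contact by contact, the libraries did not fall cleanly by cell type in log2 O/E. Over the 23395 contacts listed in all 4 tables, log2 O/E of thymocyte library 1 correlated more with keratinocyte library 2 (Pearson's r = 0.306, Spearman's rho = 0.366) than with thymocyte library 2 (0.178 and 0.240). Keratinocyte library 1 correlated with the thymocyte libraries at 0.037 and 0.061 and with keratinocyte library 2 at 0.229. These correlations are across contacts that share fragments and probes, and are descriptions. Medians of 21 TAD blocks correlated at r = 0.69 between thymocyte libraries, 0.90 between keratinocyte libraries and 0.63 between library 1 of each. For 102 blocks of gene clusters these were 0.35, 0.68 and 0.29. Other pairs were not computed for blocks. The paper reports that raw counts correlated more within each cell type than between them. Libraries listed 45861 to 95692 contacts with summed corrected frequencies of 1.23e+07 to 3.02e+07, the raw counts were not used here, and the depth in reads behind a contact is therefore unknown. Of the contacts in thymocyte library 1, 14756 (32.2%) were absent from the table of library 2, and 22315 (41.8%) of those in library 2 were absent from the table of library 1. Contacts in 1 library were longer and had lower frequencies than shared ones: in library 1 their median frequency was 61.4 against 84.7 and their median distance 1745 kb against 1045 kb, and in library 2 these were 50.2 against 75.5 and 1871 kb against 1045 kb. By q-value they were not weaker: 14.7% of them were under 0.05 in library 1 against 10.3% of the shared contacts, and 17.02% against 12.7% in library 2. The map described below is therefore the shorter part of what either library listed, and not a stronger part by q-value.

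Thymocyte contacts fell steeply over the first steps of genomic distance. Pairs of fragments at a deposited distance of 0 kb are called neighbouring here, and whether each pair shares a HindIII site was not checked. They had a median corrected frequency of 57456 in library 1 and 75074 in library 2 (198 contacts). Between 1 and 10 kb the medians were 4338 and 5110, between 50 and 100 kb 447 and 494, and between 200 and 500 kb 140 and 137. The libraries separated beyond 1 Mb, where the medians between 2000 and 3000 kb were 47.2 and 20.8. Over 3000 kb they were 104 and 76.3, and the expected frequencies were also higher there (103 and 81.9, against 45.3 and 20.4 between 2000 and 3000 kb), so O/E removes this step. The share of fragment pairs listed in both thymocyte libraries was 52.1% between 1 and 10 kb and 16.4% over 3000 kb. How far the libraries ranked contacts alike also changed with distance: Spearman's rho across contacts was 0.758 for neighbouring fragments, 0.426 between 50 and 100 kb and 0.126 between 2000 and 3000 kb.

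**Figure D1:**
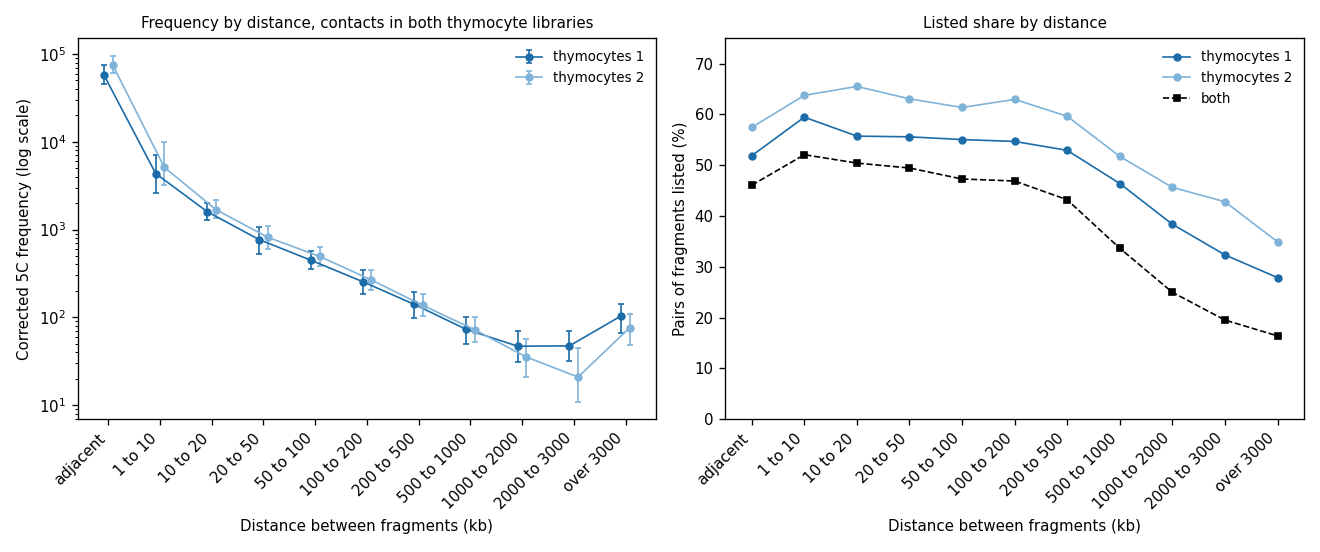
Left, median corrected 5C frequency (log scale, bars from the lower to the upper quartile over contacts) by distance for the 31105 contacts of both thymocyte libraries. Right, percent of fragment pairs listed, which fell from 52.1% at 1 to 10 kb to 16.4% over 3000 kb for both libraries together.

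Neighbouring fragments were 0.637% of the thymocyte contacts and carried 64.8% and 68.6% of their summed frequency. Over the contacts of all 4 tables this share was 65.0% and 68.9% in thymocytes and 20.5% and 25.7% in keratinocytes, with no overlap between the cell types (difference of means 43.9 percentage points, two-sided exact permutation p = 0.333, the smallest that 2 libraries against 2 allow). Contacts of 50 kb to 1 Mb carried 13.04% and 10.63% of the frequency in thymocytes and 46.5% and 41.4% in keratinocytes. Within that range the thymocyte frequency fell with an exponent of −0.80 in library 1 and −0.83 in library 2, and the keratinocyte frequency with −0.69 and −0.73. The slopes did not overlap (difference −0.11, exact permutation p = 0.333).

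**Figure D2:**
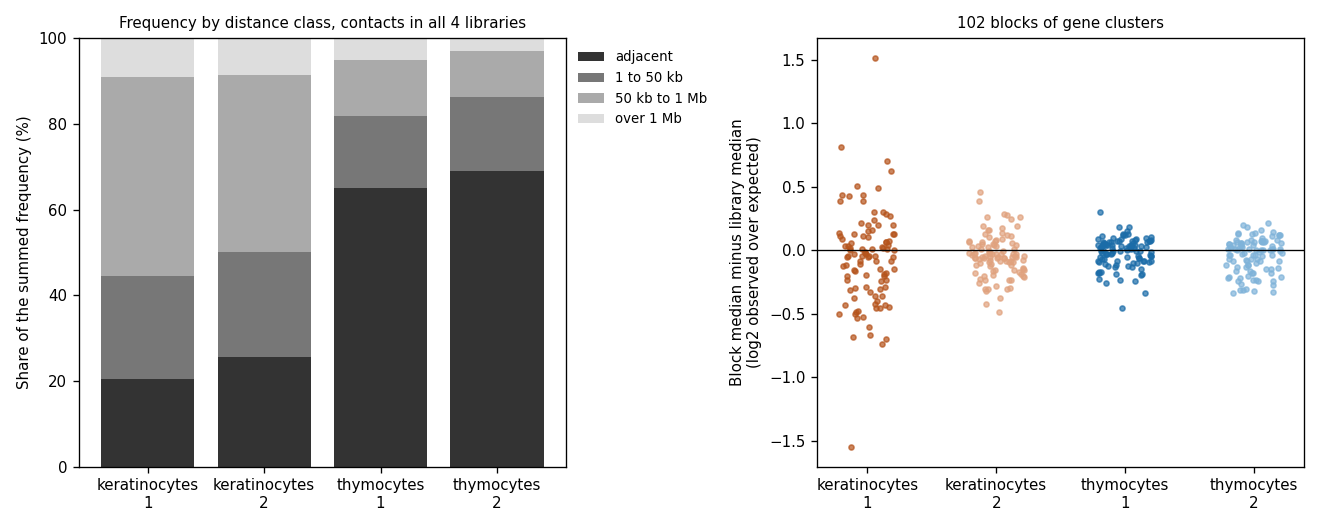
Left, share of the summed corrected frequency by distance class in each library, over the 23395 contacts listed in all 4. Neighbouring fragments carried 65.0% and 68.9% in thymocytes and 20.5% and 25.7% in keratinocytes. Right, each point is the median log2 O/E of a block of gene clusters minus the library median, where keratinocyte library 1 spread most widely.

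By TAD, contact strength in thymocytes differed little from place to place. The thymocyte borders that the study placed on these libraries, at 90.77, 92.0825, 92.69, 93.89 and 94.82 Mb, divide the locus into TAD1, TAD2, TAD3, TAD4/5, TAD6 and TAD7, where a single thymocyte TAD stands at TAD4 and TAD5 of keratinocytes. They hold 28, 8, 31, 30, 24 and 18 protein-coding genes, so that TAD2 is the gene-poor one with 6.10 genes per Mb. At matched distance, contacts within a TAD exceeded contacts between TADs by 0.038 and 0.034 in log2 O/E in thymocyte libraries 1 and 2. Over the contacts of all 4 tables, with thymocyte borders for both cell types, the excess was 0.036 and 0.026 in thymocytes and 0.18 and 0.072 in keratinocytes (difference −0.093, exact permutation p = 0.333). With keratinocyte borders for both the difference was −0.19, and without keratinocyte library 1 it was −0.042. Since the borders were placed on the same libraries, the thymocyte excess is a description.

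TAD7, with Setdb1, a histone methyltransferase gene, and Psmd4, a proteasome subunit gene, had the highest medians of log2 O/E in contacts with itself, 0.19 in library 1 and 0.22 in library 2 (460 contacts). TAD3, which holds the involucrin (Ivl), Sprr1 and Lce1 genes of the cornified envelope, had 0.14 in both libraries (948 contacts), and TAD4/5 with the filaggrin-like genes had 0.11 in both (3103 contacts). TAD6, with Snx27 and Pogz, had 0.13 and 0.098 (1557 contacts), TAD2 0.095 and 0.057 (839 contacts) and TAD1 0.060 and 0.11 (2320 contacts). Between TADs the highest mean of the 2 medians was that of TAD2 with TAD3 (0.14 and 0.16, 1590 contacts), although TAD1 with TAD6 was higher in library 1 (0.17 and 0.054). By the mean of the 2 libraries, the lowest medians among pairs of TADs were those of TAD3 with TAD7 (−0.032 and −0.21), TAD4/5 with TAD7 (−0.019 and −0.11) and TAD1 with TAD3 (0.038 and −0.14). On these values the libraries disagreed by more in these pairs than in any TAD with itself. Relative to the library median this did not hold for TAD4/5 with TAD7 (−0.10 and −0.16), since TAD1 with itself was at −0.024 and 0.061. After the median of each library was subtracted, limma called 0 of 21 blocks (0%) different from 0 at an adjusted p under 0.05, and 8 at an unadjusted p under 0.05. TAD7 with itself stood at 0.14 ± 0.032 (SE, n = 2, limma adjusted p = 0.0646), TAD3 with TAD7 at −0.18 ± 0.042 (adjusted p = 0.0646) and TAD4/5 with TAD7 at −0.13 ± 0.030 (adjusted p = 0.0646). With contacts of at least 50 kb alone these 3 blocks passed (adjusted p = 0.0435, 0.0443 and 0.0469).

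**Figure D3:**
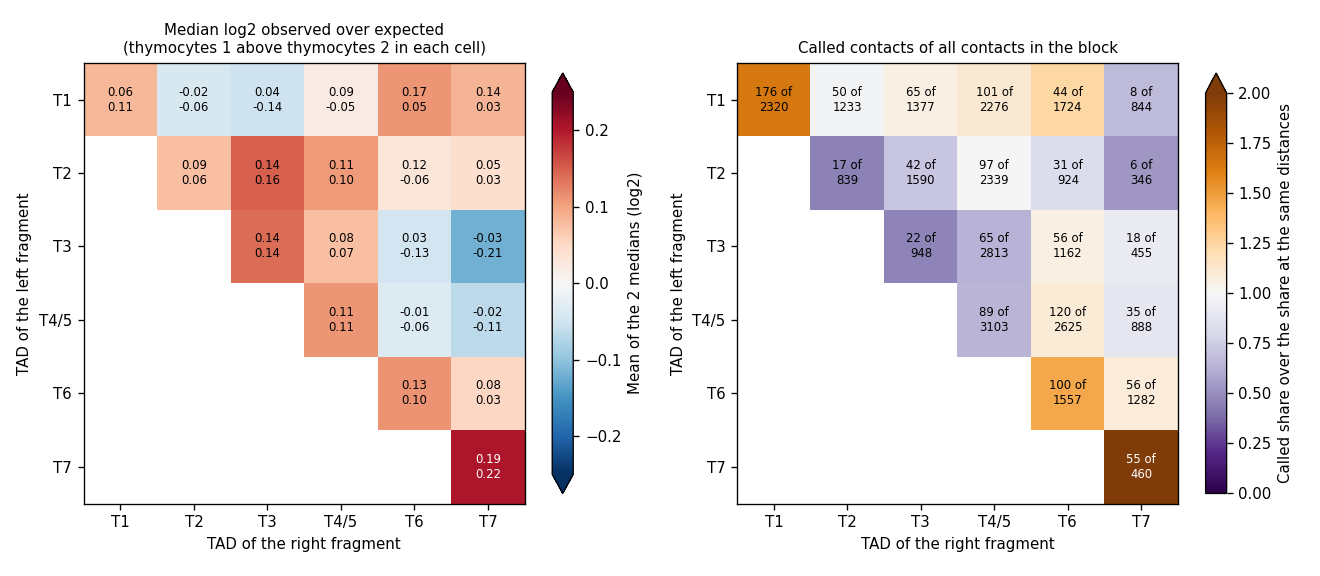
Blocks of thymocyte TADs, with the TAD of the left fragment down and that of the right fragment across. The left map gives the median log2 O/E in each library and is coloured by their mean, highest for TAD7 with itself. The right map gives called contacts of all contacts and is coloured by the called share over the share at the same distances, highest in TAD7, TAD1 and TAD6 with themselves.

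Against keratinocytes, limma called 0 of 21 TAD blocks (0%) at an adjusted p under 0.05 and 4 at an unadjusted p under 0.05. Values here are relative to the library median over contacts of all 4 tables. TAD7 with itself was 0.097 and 0.16 in thymocytes and 0.49 and 0.30 in keratinocytes (difference −0.27 ± 0.076 SE, adjusted p = 0.0748). TAD4/5 with itself was 0.033 and 0.067 in thymocytes and −0.19 and −0.11 in keratinocytes (difference 0.20, adjusted p = 0.0902). TAD2 with TAD4/5 was 0.021 and 0.047 in thymocytes and 0.45 and 0.13 in keratinocytes (difference −0.25, adjusted p = 0.0902). In each of these blocks the cell types did not overlap, which held for 12 of the 21 blocks, 6 with thymocytes above and 6 below. A fit that leaves 1 library of a cell type holds no spread within that cell type, so counts from such fits are not given. Without keratinocyte library 1 the differences of TAD7 with itself and of TAD2 with TAD4/5 were −0.17 and −0.096. On the Z score 3 blocks passed.

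Contacts that cross a thymocyte TAD border were compared with contacts on 1 side of it, in both cell types. Both fragments lay within 400 kb of the border, over contacts of all 4 tables. The study placed keratinocyte borders at 90.635, 91.895, 92.72, 93.53, 94.0025 and 94.8275 Mb. The keratinocyte values here were therefore not measured at keratinocyte borders. The thymocyte differences in log2 O/E were within 0.1 of 0 at each of the 5 borders: −0.074 and −0.092 at TAD1 to TAD2, 0.024 and 0.032 at TAD2 to TAD3, 0.0018 and 0.0032 at TAD3 to TAD4/5, −0.066 and 0.017 at TAD4/5 to TAD6, and 0.035 and −0.041 at TAD6 to TAD7. The keratinocyte libraries gave −0.39 and −0.18, 0.34 and 0.18, 0.047 and 0.11, 0.76 and 0.30, and −0.39 and −0.18 at the same borders. At every border both keratinocyte libraries lay on one side of both thymocyte libraries (exact permutation p = 0.333 each, 5 borders). The TAD4/5 to TAD6 border rests on 25 crossing contacts, and the sign of its difference turned with a window of 250 kb (−0.56 against 0.44).

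The study also placed FISH probes on regions named A to E. Region A (chr3:91894818-92021235) and region B (chr3:92583402-92766349) met above expectation in both cell types, at 0.27 and 0.28 in thymocytes and 0.70 and 0.39 in keratinocytes (log2 O/E, 51 contacts of all 4 tables). Between B and region D in the gene-poor TAD2 (chr3:91177126-91327356) the medians were 0.051 and 0.14 in thymocytes and 1.35 and 0.62 in keratinocytes (16 contacts). Between A and D they were 0.13 and 0.13 in thymocytes and −0.91 and −0.099 in keratinocytes (10 contacts), while the 18 thymocyte contacts of that pair had medians of 0.078 and −0.014. Region C (chr3:93215624-93411886) met A at 0.075 and 0.17, B at 0.13 and 0.087, and D at 0.15 and 0.031 in thymocytes. Over the 32 contacts of C with D in both thymocyte tables the medians were 0.017 and −0.14, so the sign in library 2 depends on which contacts are listed. Exact permutation p was 0.667 for B with C and 0.333 for the other 5 pairs, so no pair could pass a threshold of 0.05. Pairs with region E had at most 1 contact.

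Of the 31105 contacts, 1253 were called in both thymocyte libraries (4.03%), of which 459 lay within a TAD and 794 between TADs, and 616 spanned 1 Mb or more. They stood a median 3.18-fold over expected in library 1 and 3.26-fold in library 2. They were 38.9% of the 3217 shared contacts with a q-value under 0.05 in library 1 and 31.8% of the 3945 in library 2. Of the called contacts, 883 were listed in all 4 tables, where 136 had a q-value under 0.05 in both keratinocyte libraries and 415 in neither. Keratinocyte library 1 had a q-value under 0.05 in 5729 of its 95692 listed contacts, and keratinocyte library 2 in 7637 of 67210. The share of all contacts of the 4 tables that passed in both or in neither was not counted. Without that share, these counts neither mark the calls as particular to thymocytes nor show how far they are shared beyond other contacts.

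Called contacts were unevenly spread over the TADs. Each share is set beside the share called among all thymocyte contacts at the same distances. In TAD7 with itself 55 of 460 contacts were called (12.0% against 5.24%), in TAD1 176 of 2320 (7.59% against 4.62%) and in TAD6 100 of 1557 (6.42% against 4.41%). In TAD2 17 of 839 were called (2.03% against 4.44%), in TAD3 22 of 948 (2.32% against 4.96%) and in TAD4/5 89 of 3103 (2.87% against 4.43%). The outer TADs were thus above and the central TADs below the share at their distances. Contacts with both fragments in TAD1, TAD6 or TAD7 were called at 5.36% against 3.65%, and contacts with neither fragment there at 2.85% against 4.13%. TAD1 with TAD7, the ends of the locus, was again low, with 8 of 844 called (0.948% against 1.42%).

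The ratio of these shares was then taken in each library on its own, over contacts of all 4 tables. With both fragments in TAD1, TAD6 or TAD7 it was 1.42 and 1.33 in thymocytes and 1.09 and 1.28 in keratinocytes (difference 0.19, exact permutation p = 0.333). TAD7 with itself was at 2.21 and 2.12 in thymocytes and 3.01 and 2.57 in keratinocytes (exact permutation p = 0.333), so a high called share in TAD7 was measured in all 4 libraries. TAD2 with itself was below 1 in all 4 (0.45 and 0.40 in thymocytes, 0.66 and 0.41 in keratinocytes). TAD1 was at 1.61 and 1.63 in thymocytes and 1.09 and 1.65 in keratinocytes, and TAD6 at 1.14 and 1.07 against 1.34 and 1.06. TAD4/5 was at 0.66 and 0.64 against 0.74 and 0.69, and TAD3 at 0.55 and 0.62 against 1.13 and 0.57. Outer TADs above 1 and central TADs below it were thus measured in keratinocytes too, apart from TAD3 in keratinocyte library 1.

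By gene cluster, the highest called shares were in clusters towards the ends of the locus. Of the contacts within Zfp687 to Setdb1 (chr3:94810512-95161124), 52 of 406 were called (12.8% against 5.35% at the same distances), and of those within Them4 to Snx27 (chr3:94114011-94386638), 24 of 197 (12.2% against 5.46%). The 5′ S100 cluster (chr3:90314956-90545439), which codes for small calcium-binding proteins, had 33 of 256 (12.9% against 5.43%), and Rps27 to Chtop 74 of 922 (8.03% against 5.00%). Tuft1 to Pi4kb, between the clusters of high share, had 21 of 497 (4.23% against 5.27%).

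Contacts of the epidermal clusters with themselves had low called shares. Within the filaggrin-like cluster, named for filaggrin, which bundles keratin filaments, 14 of 551 contacts were called (2.54% against 5.12%). Within the Lce1 cluster of late cornified envelope genes 3 of 187 were called (1.60% against 5.16%). Within Sprr1/3/4-Ivl 1 of 76 was called (1.32% against 5.29%) and within Lce3 2 of 78 (2.56% against 4.96%). The loricrin cluster had 0 of 65 (against 5.15%) and Sprr2 0 of 34 (against 5.07%). The gene desert of TAD2 had 12 of 475 (2.53% against 4.18%). Small clusters hold few expected calls, and contacts within a cluster share fragments, so these shares carry no interval. Contacts of epidermal clusters with other clusters were mixed. Those of Sprr1/3/4-Ivl with Tuft1 to Pi4kb had 15 of 166 called (9.04% against 4.36%). Those of Sprr1/3/4-Ivl with the filaggrin-like cluster had 5 of 291 (1.72% against 3.67%).

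**Figure D4:**
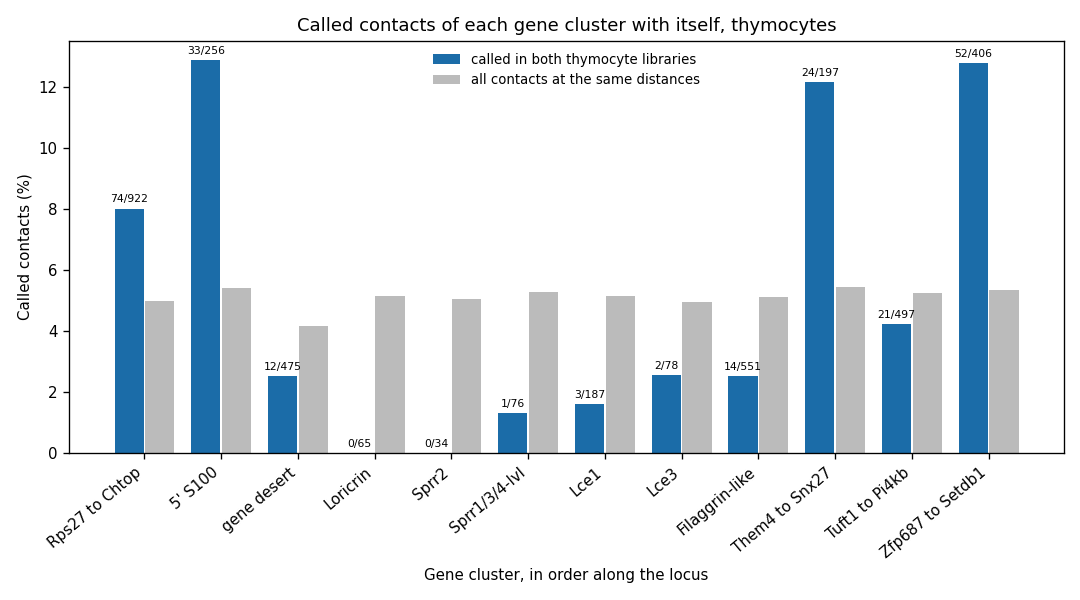
Percent of contacts called in both thymocyte libraries within each gene cluster (blue, with called over all contacts above the bar) and among all contacts at the same distances (grey), for clusters with at least 10 contacts. The clusters at the ends of the locus reach 8.03% to 12.9%, apart from Tuft1 to Pi4kb, and the epidermal clusters lie at 2.56% or below.

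The order by called share was not the order by median strength. Relative to the library median, and ranked by the mean of the 2 libraries, Zfp687 to Setdb1 with itself was highest at 0.11 and 0.22, then came the gene desert with Lce1 (0.11 and 0.17, 474 contacts) and the filaggrin-like cluster with Tdpoz (0.18 and 0.075, 136 contacts). The Lce1 cluster with itself, with few calls, was at 0.055 and 0.073. The lowest block was Lce3 with Zfp687 to Setdb1 (−0.17 and −0.35, 111 contacts), followed by Rps27 to Chtop with Sprr2 (−0.18 and −0.28, 148 contacts) and Lce3 with itself (−0.40 and −0.058, 78 contacts). Limma called 0 of 103 cluster blocks in thymocytes (0%) and 18 at an unadjusted p under 0.05, with a smallest adjusted p of 0.231. Thymocytes against keratinocytes, it called 0 of 102 (0%) and 14 at an unadjusted p under 0.05. The lowest difference was that of the gene desert with Tdpoz, at 0.13 and 0.035 in thymocytes and 1.52 and 0.46 in keratinocytes (−0.91, limma adjusted p = 0.291, 84 contacts). The highest was that of Tdpoz with Zfp687 to Setdb1, at −0.088 and 0.017 against −1.55 and −0.30 (0.89, limma adjusted p = 0.303, 16 contacts). The Lce1 cluster with itself was at 0.053 and 0.065 in thymocytes and −0.24 and −0.24 in keratinocytes (difference 0.30 ± 0.076 SE, limma adjusted p = 0.291). Them4 to Snx27 with itself was at 0.082 and 0.042 against −0.24 and −0.16 (difference 0.26, adjusted p = 0.291), and the filaggrin-like cluster at 0.043 and 0.047 against −0.20 and −0.062 (difference 0.18, adjusted p = 0.314). Both thymocyte libraries were above 0 and both keratinocyte libraries below it in these 3 clusters, and 15 of the 102 blocks had the cell types on opposite sides of 0. Zfp687 to Setdb1 with itself went the other way, at 0.11 and 0.20 against 0.51 and 0.29 (difference −0.24, adjusted p = 0.294), as did the 5′ S100 cluster (difference −0.084, adjusted p = 0.559). Thymocytes lay above keratinocytes without overlap in 29 blocks and below in 28. When single libraries were left out, the difference ranged from 0.29 to 0.31 for Lce1 with itself. For the filaggrin-like cluster with itself it ranged from 0.11 to 0.24.

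Blocks of gene clusters spread less in thymocytes than in keratinocytes. The SD over the 102 block medians was 0.12 and 0.13 in thymocyte libraries 1 and 2, and 0.38 and 0.17 in keratinocyte libraries 1 and 2 (exact permutation p = 0.333). For the 21 TAD blocks it was 0.067 and 0.11 against 0.22 and 0.10, where the cell types overlapped (exact permutation p = 0.667).

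Called contacts also varied with what the fragments held. With a transcription start of a coding gene in both fragments, 19 of 277 contacts were called (6.86% against 4.01% at the same distances), with a start in 1 fragment 268 of 5156 (5.20% against 3.99%) and with none 966 of 25672 (3.76% against 4.04%). Fragments with a putative keratinocyte enhancer of the study gave 120 of 2023 contacts called (5.93% against 4.03%) where 1 fragment held one. The share called also moved with base composition: it was 2.57% among the 170 fragments of lowest GC content and 5.59% among the 169 of highest, and Spearman's rho of GC content and percent called was 0.301 over 677 fragments. The high-GC fragments had fewer listed contacts, a median of 69 against 127. Spearman's rho of fragment length and percent called was 0.163. The part of GC content in the differences between TADs and clusters was not tested.

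Called contacts were also counted by fragment. Of 677 fragments, 565 took part in at least 1 called contact, with a median of 3. The 57 fragments with 10 or more were in 578 of the 1253 called contacts. These fragments were chosen by that count, and the share of all contacts that involve them was not computed. Whether calls gather on them was therefore not tested. Reverse 1542 (chr3:94637243-94638404, intergenic, 3.08 kb from Pogz) had the most, 18 of its 135 contacts. Forward 1151 (chr3:93360291-93362400), in an intron of S100a10, a partner of annexin A2, had 16 of 185 and holds the keratinocyte enhancer E11. Reverse 983 with the Lce1m gene, reverse 856 near Ivl and forward 154 in the 5′ S100 cluster had 15 each, of 139, 170 and 135 contacts.

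Of the listed genes, 6 of the gene-rich flanks (Tdrkh, Lingo4, Tnfaip8l2, Dennd4b, Selenbp1 and Zfp687) had 68 of 1028 contacts called (6.61% against 3.90% at the same distances). Tdrkh, a gene of the piRNA pathway, had 42 of 634 (6.62% against 3.83%) and Dennd4b 20 of 326 (6.13% against 3.89%). Lingo4 had 0 of 8 (against 5.33%) and Selenbp1 0 of 6 (against 3.95%). Broadly used genes had 157 of 3192 (4.92% against 3.90%). Among them Ints3, an integrator complex gene, had 37 of 299 (12.4% against 4.07%). Gatad2b, a chromatin remodelling gene, had 31 of 813, at its share (3.81% against 3.84%). The S100 genes had 84 of 1679 (5.00% against 3.93%) and the epidermal barrier genes 128 of 2496 (5.13% against 4.14%). The last group was mixed. Involucrin (Ivl) had 8 of 90 contacts called (8.89% against 4.29%) and trichohyalin (Tchh) 14 of 169 (8.28% against 4.17%). Loricrin (Lor) with 6 of 134 (4.48% against 4.13%) and filaggrin-2 (Flg2) with 14 of 384 (3.65% against 4.27%) were near their share. Repetin (Rptn) had 3 of 198 (1.52% against 4.25%). Filaggrin (Flg) had 13 contacts in all, 2 of them called (15.4% against 4.36%). The remaining listed genes, which include Them4 and Cgn, had 64 of 1314 (4.87% against 3.86%).

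Gene by gene, thymocytes differed from keratinocytes in 1 of 86 genes tested (1.16%; limma, adjusted p under 0.05), with 10 at an unadjusted p under 0.05. Of the listed genes, 35 were tested and 0 passed. The gene that passed was S100a3, at 0.026 and −0.0045 in thymocytes and 0.63 and 0.75 in keratinocytes relative to the library median (difference −0.68 ± 0.077 SE, adjusted p = 0.0467, 16 contacts). It is on no list and is named because it passed. The 40 thymocyte contacts of S100a3 had median log2 O/E of −0.12 and 0.30, without the library median subtracted. The closeness of the thymocyte libraries in the test therefore rests on which contacts are listed. On the Z score its adjusted p was 0.201, with means in place of medians 0.872, with contacts of at least 50 kb 0.0741, and with a minimum of 30 contacts it was not tested. Its neighbour S100a4, known for a role in cell motility, had the highest difference in the same test without passing (1.34 and 1.35 against 0.56 and 0.77, adjusted p = 0.0560), over the 20 of its contacts that all 4 tables listed. The 129 thymocyte contacts of S100a4 had medians of −1.10 and −0.49, so the contacts that all tables listed were the strong ones of this fragment. When single libraries were left out, the difference ranged from −0.74 to −0.62 for S100a3 and from 0.58 to 0.79 for S100a4.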

How the data were processed

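5C was measured in 2 libraries of thymocytes and 2 of keratinocytes. The authors aligned reads to the probe sequences (Bowtie and mm9, per the submitters' processing notes), counted joined probe pairs, dropped probes that performed badly and isolated contacts of extreme strength, and evened out probe coverage per library by Loess. The deposited signal is the resulting corrected 5C frequency, which the authors did not scale to a common total, with the expected frequency at the same distance and its standard deviation. The deposited score is the Z score. The deposited p-value and q-value come from a Weibull fit to the Z scores of each library. The deposited distance is in kb. The tables have no header, and these meanings were assigned from the values and the study's methods. Because coverage and expectation were fitted in each library, values compare contacts within a library first, and a contact that a table does not list has no value.

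Samples were grouped by title. Fragments were assigned to thymocyte TADs by midpoint, and genes, exons and transcription starts came from GENCODE on mm9. Of 761 probes in the study's list, 737 matched mm9 at their stated place. Block and gene medians of log2 observed over expected frequency (at least 10 contacts) minus the library median were tested with limma 3.58.1 in R 4.3.3 (lmFit, eBayes, Benjamini-Hochberg adjustment over all blocks or genes, adjusted p under 0.05), without pairing. Single measures were tested with two-sided exact permutation over libraries in SciPy 1.17.1. Shares at the same distances were taken in bins of 50 kb. Members, gene lists and tests were chosen with earlier results of these data known. Genes named were a list of 50 with the contacts and blocks of the highest and lowest values, and any that passed a test. The fragments with the most calls, and the gene clusters in the test against keratinocytes, were chosen after their values were seen. Simulated data with a shift between cell types were used to test limma. At a shift of 0.5 it recovered 2 of 2 TAD blocks, 5 of 10 cluster blocks and 9 of 9 genes. At 0.25 it recovered 1 of 2, 0 of 10 and 0 of 9. At 1 it recovered 2 of 2, 9 of 10 and 7 of 9, with 1 gene called that was not shifted. Each count is from 1 random draw. Alternatives covered the scale, centring, summary, distances, borders, thresholds, a replicate block and leaving out each library. Raw reads were not used here, and 1 gene of the locus is not reported here.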

Additional observations from a re-analysis of the deposited data

Results flagged for a closer look

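Contacts between region A (chr3:91894818-92021235) and region D (chr3:91177126-91327356) moved in opposite directions in the cell types: the median log2 O/E was above 0 in both thymocyte libraries (0.13 and 0.13) and below 0 in both keratinocyte libraries (−0.91 and −0.099). The difference of means was 0.64, over 10 contacts listed in all 4 tables. The test of the difference, an exact permutation over libraries, gave p = 0.333, the smallest that 2 libraries against 2 allow. Without keratinocyte library 1 the difference was 0.23. Over the 18 contacts listed in both thymocyte tables the thymocyte medians were 0.078 and −0.014, so the direction in thymocytes rests on which contacts are listed.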

How the results depend on the processing

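Across 50 results, 377 alternative values were computed, of which 323 kept their direction and their side of the threshold or stayed close to the reported value. Some of the 323 could not move. A replicate block leaves the difference of a single measure unchanged, and a minimum of 30 contacts drops no TAD block. The count of 323 is therefore a description. The sign turned for the TAD4/5 to TAD6 border with a window of 250 kb (0.44), for regions B and C without keratinocyte replicate 2 (−0.011, against 0.051 without keratinocyte replicate 1), and with means in place of medians for TAD2 (−0.068), TAD3 (−0.032) and TAD4/5 (−0.015) with themselves and TAD1 with TAD3 (0.022) in thymocytes. In thymocytes, TAD blocks that passed numbered 1 with means and 3 at 50 kb or more, and cluster blocks 5 on the Z score and 4 at 50 kb or more. Against keratinocytes, 3 TAD blocks passed on the Z score, and leaving out 1 library gave 0 to 5 TAD blocks, 0 to 23 cluster blocks and 2 to 8 genes. Genes that passed numbered 0 on the Z score, with means, at 50 kb or more or with 30 contacts or more, 3 without centring and 4 with a replicate block. With the replicate block 0 TAD blocks and 0 cluster blocks passed, as without it. The labels pair no libraries, and same-numbered libraries deviated together at r = −0.0883 over 23395 contacts. Called contacts numbered 958 at a q-value under 0.01 and 1470 under 0.1. The thymocyte tests of blocks cannot be repeated without 1 of their 2 libraries, since no residual degrees of freedom remain. Why these values moved was not tested. The depth in reads is unknown, and contacts at long distance, where 1 library often lists what the other does not, are limited most.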
